A study of Mus musculus with 12 samples.

Results

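Epididymal fat of mice lacking Siah2 was compared with wild-type fat on 2 diets, to find the genes that differed between the genotypes in the same direction on both. All 12 of the 12 arrays of the study entered the comparison, 3 in each of 4 groups. The genes were chosen by a rule on the arrays themselves: the 3 knockout arrays had to lie all above, or all below, the 3 wild-type arrays on the low fat diet, and again in the same direction on the high fat diet. Of the 11659 genes tested, 433 met this rule, 250 of them higher and 183 lower in knockout, and they are called separated genes here. The size of the shared effect is the mean of the knockout-minus-wild-type differences on the 2 diets, in log2(intensity + 50), so that each diet weighs equally. Intensities are the authors' normalized bead signals in arbitrary units.

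The mice were male C57BL/6J animals of 20 weeks, either wild type or carrying a global Siah2 knockout, in which every cell type lacks the gene. From weaning at 4 weeks they ate a diet with 10% fat (low fat) or 45% fat (high fat). Each group was 3 pools of RNA from 10 animals, or from 8 animals for knockout on high fat, so each array is an average over animals and the spread between arrays is that between pools. Siah2 is a RING-type ubiquitin ligase, an enzyme that attaches ubiquitin to chosen proteins and so sends them to the proteasome for breakdown. It is best known for acting on the prolyl hydroxylases that set the level of hypoxia-inducible factors. White adipocytes store triglyceride under the control of the nuclear receptor Pparg, and in obesity macrophages that take up lipid gather around them.

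The arrays detected between 13389 and 15037 of 25697 probes, and arrays of a group correlated at 0.943 to 0.985 over log2 values of genes, which are not independent replicates. Adipocyte markers were high on every array, with a mean log2 level between 11.75 and 12.56 over 10 genes. Some arrays also held RNA of the genital tract next to the fat. Averaged over 10 seminal vesicle genes, the log2 level was 14.82, 14.87 and 12.16 in wild type on low fat, 8.71, 8.91 and 8.63 in knockout on low fat, and 5.65 to 6.28 on the 6 high fat arrays. Averaged over 22 epididymal genes, it was 13.54, 13.52 and 12.17 in wild type on low fat and 10.65, 8.52 and 10.81 in knockout on low fat. On high fat the epididymal mean was 5.89 to 6.77 on 5 arrays and 10.18 in replicate 2 of knockout. The low fat array labelled knockout replicate 1 stood apart in skeletal muscle genes, with a mean of 9.42 over 16 genes against 6.84 to 8.63 on the other arrays. The part of this tract and muscle RNA in single results was not tested, but the shared effect is also given with the epididymal level as a covariate and without these arrays.

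The Siah2 probe was read on every array as a check of the labels. Siah2 measured 102, 121 and 91.6 in wild type and 102, 62.2 and 63.4 in knockout on low fat, and 111, 78.6 and 89.0 in wild type and 55.3, 68.2 and 45.0 in knockout on high fat. The genotypes did not overlap on high fat, while on low fat the low fat array labelled knockout replicate 1 lay inside the wild-type range. The averaged difference was -0.37 (SE 0.11, limma adjusted p = 0.0793), with an exact two-sided permutation p of 0.01 over the 400 arrangements of genotype within diet, the smallest they allow being 0.005. The knockout arrays kept signal above the approximate detection floor of 27.9, and the sources used here do not give where the probe lies relative to the disrupted sequence, so the probe checks the labels only in part. The related ligases gave -0.11 for Siah1a (adjusted p = 0.529) and -0.11 for Siah1b (adjusted p = 0.49). Nnt, the mitochondrial transhydrogenase that is disrupted in the C57BL/6J strain, was detected by 0 of its 3 probes on any array and was not tested.

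The averaged contrast called 354 genes at an adjusted p under 0.05 (limma, Benjamini-Hochberg over all genes), which is 3.04% of the genes tested, with 223 higher (1.91%) and 131 lower (1.12%). Cyclic loess scaling called 331 genes but turned the split to 142 higher and 189 lower, or 42.9% higher against 63.0%. It also turned the separated genes to 225 higher and 266 lower and the calls on low fat to 333 higher and 548 lower, so the balance between rises and falls depends on the scaling. The 433 separated genes were 3.71% of all genes, with 2.14% higher and 1.57% lower, beside 214 genes (1.84%) that did not overlap on either diet but differed in opposite directions. On low fat alone the genotypes did not overlap for 2227 genes upward (19.1%) and 1627 downward (14.0%), and on high fat for 742 upward (6.36%) and 1378 downward (11.8%). With such shares on each diet, some genes meet the rule on both diets even if the diets are unrelated. How many was not worked out, so the counts of separated genes do not by themselves show a shared effect, upward or downward. The averaged call and the separation both held for 199 genes (1.71%), of which 126 were higher (1.08%) and 73 lower (0.626%). In what follows, genes called in the averaged contrast are said to have risen or fallen, and the 234 separated genes without a call are given by their values.

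The shared differences were modest in size. Among the separated genes the median averaged log2 difference was 0.44 for those higher (0.50 on low fat and 0.37 on high fat) and -0.34 for those lower (-0.37 and -0.29). The difference was larger on low fat for 185 of the 250 higher genes and 120 of the 183 lower genes. The difference between diets was called for 0 of the 433 separated genes, against 12 of all genes (0.103%). At an unadjusted p under 0.05 it was found for 19 of the higher and 14 of the lower genes, against 2387 of all genes (20.5%). The separated genes were chosen for a shared direction, which itself lowers these counts, so the counts do not show equal effects on both diets. The single-diet contrasts called 550 genes higher (4.72%) and 374 lower (3.21%) on low fat, but 0 higher (0.0%) and 10 lower (0.0858%) on high fat, where 490 (4.2%) and 860 (7.38%) had an unadjusted p under 0.05. No gene was called in the same direction by limma on both diets. Of the separated genes, 96 of the higher and 64 of the lower were called on low fat alone, and 0 and 1 on high fat alone.

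**Figure D1:**
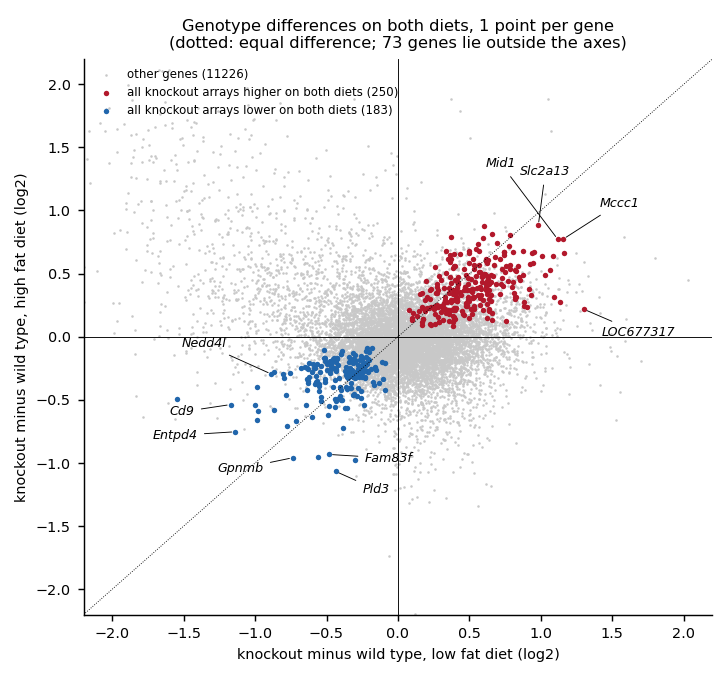
Genotype difference on low fat (x axis) against that on high fat (y axis), in log2(intensity + 50), knockout minus wild type, with a point for each gene tested and the separated genes in colour. The 250 separated higher genes and the 183 separated lower genes fill opposite quadrants, and 73 genes outside the axes of ±2.2, Cstdc2 among them, are not drawn.

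Most single calls rested on all 12 arrays being present. Without replicate 1 or replicate 3 of knockout on high fat, 13 genes were called, of which 4 were among the 199. Without replicate 2 of wild type on low fat 27 genes were called, and without replicate 3 of knockout on low fat 29, with 12 of the 199 in each case. Without replicate 1 of wild type on high fat 404 genes were called, the most of the 12 sets. Leaving out the 2 arrays that stood apart, the low fat array labelled knockout replicate 1 and replicate 2 of knockout on high fat, called 511 genes, 120 of the 199 among them. In every set the 199 genes kept their direction, which was fixed in advance, since separated genes cannot change it when arrays are left out. They also kept an unadjusted p under 0.05, but they had been chosen by their p on all 12 arrays. Once the epididymal level was added as a covariate, 29 genes were called (0.249%), 13 of the 199 among them, while the differences of the 199 kept their direction at a median of 0.955 times their size and their median SE went from 0.0954 to 0.105. The same covariate left most of the seminal vesicle difference in place, with a list median of -2.63 without it and -2.51 with it. The kept sizes therefore do not speak to seminal vesicle RNA, whose part was not tested.

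The widest gap between genotypes of all separated genes was that of Slc2a13, which encodes a proton-coupled myo-inositol transporter. Slc2a13 measured 389, 361 and 455 in wild type and 756, 745 and 1045 in knockout on low fat, and 209, 201 and 241 in wild type and 446, 428 and 450.0 in knockout on high fat. Every knockout array lay above every wild-type array of its diet, by at least 0.65 in log2, and the wild-type level was lower on high fat. The averaged difference was 0.93 (SE 0.10, adjusted p = 0.00322), and the gene was called in 25 of 25 alternative fits.

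Mid1, a microtubule-bound ubiquitin ligase encoded on the X chromosome, rose by 0.94 (SE 0.11, adjusted p = 0.00574). The Mid1 intensities were 6.73, 8.16 and -0.378 (wild type) and 81.5, 73.0 and 53.5 (knockout) on low fat, with 28.8, 27.3 and 50.2 (wild type) and 121, 89.4 and 77.5 (knockout) on high fat. The wild-type arrays on low fat averaged 4.84, under the approximate detection floor, so that the rise there was at least 2.45-fold. A further Mid1 probe gave 0.84 and was separated too. Dpyd, the first enzyme of pyrimidine breakdown, rose by 0.67 (SE 0.09, adjusted p = 0.0146). On low fat Dpyd read 202, 233 and 279 in wild type and 493, 433 and 441 in knockout, and on high fat 173, 132 and 182 and 244, 262 and 257. Both genes were called in all or nearly all fits, Mid1 in 24 of 24 and Dpyd in 24 of 25.

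Ptger3, the prostaglandin E2 receptor EP3, which couples to inhibition of cyclic AMP and so restrains lipolysis in fat cells, rose by 0.80 (SE 0.11, adjusted p = 0.015). The wild-type arrays gave Ptger3 intensities of 629, 656 and 514 on low fat against 1015, 1388 and 1199 in knockout, and 1304, 888 and 1022 against 1797, 1780.0 and 1553 on high fat. The knockout levels lay above the wild-type levels on both diets, and both genotypes were higher on high fat than on low fat. Jak1, the tyrosine kinase of many cytokine receptors, rose by 0.62 (adjusted p = 0.0339), and Map4k5, a kinase of the germinal centre family, by 0.75 (adjusted p = 0.0339). Erg, an ETS transcription factor of endothelial cells, rose by 0.62 (adjusted p = 0.0313) from a low level, with means of 1.10 and 40.5 on low fat and 30.5 and 57.6 on high fat. The mean of wild type on low fat was under the floor. Jak1 and Erg were chosen after their values were seen.

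The other largest rises were L3hypdh, which acts in hydroxyproline breakdown, at 0.91 (SE 0.16, adjusted p = 0.0251), and Jam2, a junctional adhesion molecule, at 0.80 (SE 0.13, adjusted p = 0.0248). The 3 further Jam2 probes gave 0.58, 0.39 and 0.02. Ttc33 rose by 0.75 (SE 0.14, adjusted p = 0.0313), but its 2 other probes gave -0.16 and 0.14, so the rise rests on 1 probe. The probes LOC677317, 2700081O15Rik and LOC100044087, whose genes have no described role in the sources used here, rose by 0.76, 0.76 and 0.72. Klhl2, an adaptor of cullin ubiquitin ligases, rose by 0.74 with an adjusted p just under the threshold. Pon3, a paraoxonase, rose by 0.70 (adjusted p = 0.0232), and Prkd1, protein kinase D1, by 0.55 (adjusted p = 0.0268), both chosen after their values were seen. The 2 other Prkd1 probes gave 0.04 and 0.19.

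**Figure D2:**
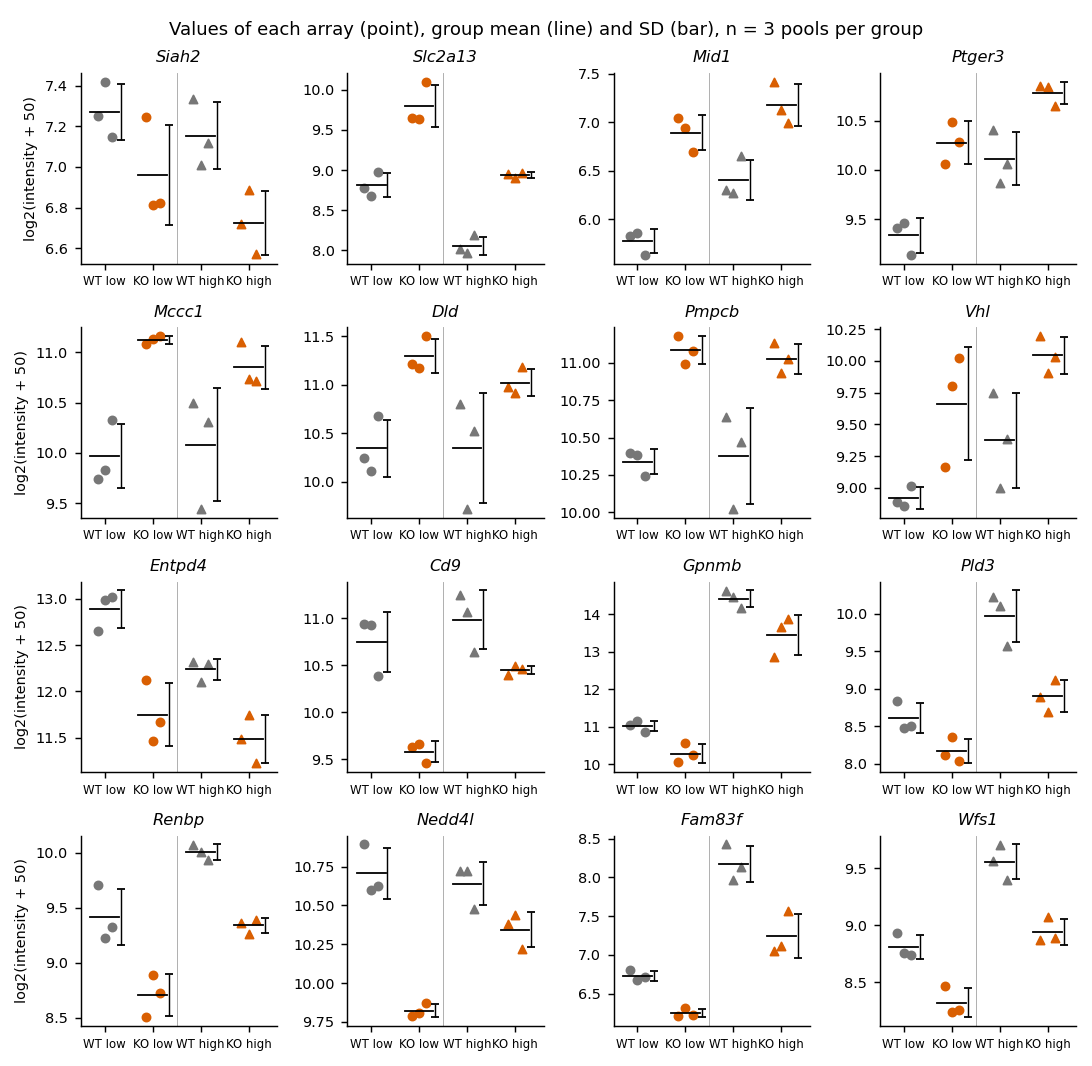
Level of Siah2 and of 15 named genes on each array (y axis, log2 of intensity + 50), with a panel for each gene, points for the 3 arrays of each group, lines for the group mean and bars for the SD. Apart from Siah2 on low fat, the knockout arrays lie on the same side of the wild-type arrays on both diets, as for Slc2a13, with intensities of 201 to 455 in wild type and 428 to 1045 in knockout.

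Genes of mitochondrial fuel use were among the rises. Of 26 measured genes of the citrate cycle and branched-chain amino acid breakdown, 3 rose and 0 fell, 5 were separated upward and 0 downward, and the median difference was 0.26, against a median of -0.002 over all genes. Over all genes 1.91% rose and 1.12% fell, and 2.14% were separated upward and 1.57% downward. These shares belong beside the counts of every list below, and single calls in a list were not read as results about that list. Mccc1, a subunit of the carboxylase of leucine breakdown, rose most, by 0.96 (SE 0.18, adjusted p = 0.0268). Mccc1 measured 805, 861 and 1240.0 in wild type and 2116, 2189.9 and 2239 in knockout on low fat, and 1393, 645 and 1218 in wild type and 2148, 1661 and 1638 in knockout on high fat. The knockout arrays were higher on both diets, and replicate 2 of wild type on high fat was the lowest of its group. Cs, citrate synthase, rose by 0.32 (adjusted p = 0.0313), and Suclg2, the GTP-forming subunit of succinyl-CoA synthetase, by 0.36 (adjusted p = 0.0349). Idh2, the mitochondrial isocitrate dehydrogenase, and Aldh6a1, an enzyme of valine breakdown, were separated without passing the test, at 0.42 (adjusted p = 0.0597) and 0.38 (adjusted p = 0.0601). Idh2 and Aldh6a1 were chosen after their values were seen.

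Dld, Dlat and Pdha1 of the pyruvate dehydrogenase complex and Mpc2 of the carrier that feeds it were higher in knockout on both diets. Dld, the dihydrolipoamide dehydrogenase that pyruvate dehydrogenase shares with the other 2-oxoacid dehydrogenase complexes, rose by 0.81 (SE 0.18, adjusted p = 0.0434). The Dld intensities were 1161, 1057 and 1587 (wild type) and 2334, 2257 and 2856 (knockout) on low fat, with 1740.5, 791 and 1426 (wild type) and 1960.2, 1878 and 2277 (knockout) on high fat. The groups did not overlap on either diet. Dlat, the acetyltransferase subunit of the complex, rose by 0.42 (adjusted p = 0.0279), and Mpc2, a subunit of the mitochondrial pyruvate carrier, by 0.43 (adjusted p = 0.0242). The other Mpc2 probe gave 0.30 and was not separated. Pdha1, the subunit that is regulated by phosphorylation, was separated at 0.30 (adjusted p = 0.0633). Dhtkd1, which acts in lysine and tryptophan breakdown, rose by 0.68 (adjusted p = 0.0251). Apart from Dld, these genes were chosen after their values were seen, and they are not a count over the complex.

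The respiratory chain moved less. Of 26 measured genes, 1 rose and 0 fell, 3 were separated upward, and the median was 0.13. Of all genes, 1.91% rose and 2.14% were separated upward. Ndufb5 of complex I, Uqcrc2 of complex III and Atp5a1 of ATP synthase were separated at 0.69 (adjusted p = 0.075), 0.20 (adjusted p = 0.123) and 0.62 (adjusted p = 0.0934). These 3 genes of the list were also chosen after their values were seen. Outside the list and chosen after their values were seen, Ndufb9 and Ndufab1 of complex I rose by 0.54 (adjusted p = 0.0367) and 0.57 (adjusted p = 0.0387), and Cox11, which delivers copper to complex IV, by 0.57 (adjusted p = 0.0251). Sdhd of complex II was separated at 0.53 (adjusted p = 0.0646), Ndufb6 of complex I at 0.23 (adjusted p = 0.0973) (its other probe gave -0.004), and Slc25a3, the mitochondrial phosphate carrier, at 0.14 (adjusted p = 0.222).

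Some genes that import, fold and translate mitochondrial proteins were also among the separated genes. Pmpcb, a subunit of the peptidase that removes import signals in the matrix, rose by 0.70 (SE 0.10, adjusted p = 0.018) and was called in 20 of 25 alternative fits. On low fat Pmpcb read 1296, 1286 and 1159 in wild type and 2269, 1988 and 2114 in knockout, and on high fat 1546, 989 and 1371 and 2191, 1901 and 2031. The knockout arrays exceeded the wild-type arrays by similar amounts on both diets, 0.74 on low fat and 0.65 on high fat. The matrix chaperone Hspa9 rose by 0.32 (adjusted p = 0.0463) and Clpx, the unfoldase of the ClpXP protease, by 0.38 (adjusted p = 0.0252), while the co-chaperonin Hspe1 was separated at 0.48 (adjusted p = 0.0531). The other Clpx probe gave 0.58 on low fat and -0.04 on high fat and was not separated. The other Hspa9 probe gave 0.19 and was not separated. The chaperonin Hspd1 gave 0.23 on the probe used and 0.47 on another, neither of them separated. Mtch2, an outer membrane insertase, rose by 0.37 (adjusted p = 0.0407), and Immt, which shapes the cristae, was separated at 0.25 (adjusted p = 0.0671). Of 22 measured mitochondrial ribosomal proteins, 2 rose and 0 fell, Mrps15 by 0.57 (adjusted p = 0.0314) and Mrpl20 by 0.50 (adjusted p = 0.0479), and the list's median was -0.05. In that list 8 of the 22 differences were positive, the lowest was -0.51, and Mrps15 but not Mrpl20 was separated. Outside the list, Mrpl47 rose by 0.43 (adjusted p = 0.0479) and Mrpl39 was separated at 0.48 (adjusted p = 0.116). Pmpcb, Hspa9, Clpx, Mtch2, Immt, Mrpl47 and Mrpl39 were chosen after their values were seen.

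Gabpa, the DNA-binding subunit of the ETS factor GABP, a known regulator of nuclear genes for mitochondrial proteins, rose by 0.58 (SE 0.11, adjusted p = 0.0255). The wild-type arrays gave Gabpa intensities of 82.3, 70.9 and 84.3 on low fat against 122, 147 and 130.1 in knockout, and 87.1, 39.1 and 75.8 against 123, 133 and 143 on high fat. The groups did not overlap on either diet, though another Gabpa probe gave 0.21. Gabpa was chosen after its values were seen. The sequences just upstream of Pmpcb and Gabpa are shown because each holds the GABP and ETS letters CCGGAAG, or their reverse complement, in capitals, within the 250 bases before the gene's start in RefSeq (GRCm38.p6), read 5′ to 3′ on the gene's strand.
Pmpcb (chr5:21736910-21737159, plus strand): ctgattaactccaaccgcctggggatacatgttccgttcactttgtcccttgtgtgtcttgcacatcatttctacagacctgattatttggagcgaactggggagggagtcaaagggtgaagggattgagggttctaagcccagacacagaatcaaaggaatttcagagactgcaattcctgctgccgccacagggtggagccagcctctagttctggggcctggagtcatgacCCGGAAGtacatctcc
Gabpa (chr16:84834874-84835123, plus strand): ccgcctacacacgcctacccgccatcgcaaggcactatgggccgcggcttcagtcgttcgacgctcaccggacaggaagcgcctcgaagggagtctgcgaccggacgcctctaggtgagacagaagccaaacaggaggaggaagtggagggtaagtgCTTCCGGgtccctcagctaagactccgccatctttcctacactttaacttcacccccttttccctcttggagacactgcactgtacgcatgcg
The match ends 10 bases before the start of Pmpcb, at -16 to -10, and lies at -93 to -87 for Gabpa. CCGGAAG was present on either strand in 17.9% of the 190 windows of separated higher genes, in 16.2% of the 142 windows of separated lower genes and in 12.6% of all 9036 windows of tested genes. The motif of the factor NRF1 was present in 11.1%, 10.6% and 7.47%. Both shares lay close to each other for the higher and the lower genes, and a match is a description of the letters alone.

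Among the separated higher genes, mitochondrial ones included, 2 control arrays were often the extremes of their group. Replicate 2 of wild type on high fat was the lowest of its group for 158 of the 250 separated higher genes, or 63.2%, against 30.6% over all genes tested. Replicate 1 of that group was the highest for 144 of the 250, or 57.6%, against 28.5% over all genes, and without it 404 genes were called, 162 of the 199 among them. Without replicate 2 the averaged contrast called 86 genes, 53 of the 199 among them. Pmpcb then rose by 0.61 (adjusted p = 0.0243), Mccc1 by 0.80 (adjusted p = 0.0372) and Gabpa by 0.49 (adjusted p = 0.0372). Dld no longer passed the test, at 0.66 (adjusted p = 0.0518), nor did Jak1, at 0.52 (adjusted p = 0.0518), while Ndufb5 and Atp5a1, which had not passed it with all arrays, were at 0.49 (adjusted p = 0.0527) and 0.43 (adjusted p = 0.0774).

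Genes of the adipocyte programme had positive median differences, larger on low fat than on high fat. Of 29 measured Pparg targets and related genes, 3 rose and 0 fell, with a median of 0.34, or 0.68 on low fat and 0.07 on high fat. Over all genes 1.91% rose and 1.12% fell. Cidec, a lipid droplet fusion protein, rose by 0.47 (adjusted p = 0.0365), Agpat2, an acyltransferase of triglyceride synthesis, by 0.63 (adjusted p = 0.0388), and Acsl1, the main acyl-CoA synthetase of fat cells, by 0.55 (adjusted p = 0.0475). None of these 3 was separated, because the genotypes overlapped on high fat, where the differences were 0.11, 0.39 and 0.23. The 10 adipocyte markers, Cidec among them, had 1 rise and a median of 0.36, or 0.63 on low fat and 0.12 on high fat. The tract RNA in wild type on low fat moved with this difference, and its part was not tested. In these bulk samples, fewer cells of a type and less RNA per cell cannot be told apart.

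Among 19 measured genes of fatty acid synthesis, 2 rose and 0 fell, against 1.91% and 1.12% of all genes. Me1, malic enzyme, which supplies NADPH, rose by 0.90 (SE 0.14, adjusted p = 0.018), from means of 2563 to 6491 on low fat and 3935 to 5405 on high fat, where the genotypes overlapped. Srebf1, the transcription factor that drives lipogenesis, rose by 0.56 (adjusted p = 0.0367) and was separated. Srebf1 measured 849, 636 and 503 in wild type and 1322, 1203 and 1040.4 in knockout on low fat, and 807, 914 and 828 in wild type and 1087, 980.2 and 1109 in knockout on high fat. Srebf2, its counterpart for cholesterol synthesis, lay on the other side, separated downward at -0.48 (adjusted p = 0.0671), while 0 of the 16 measured cholesterol genes passed the test. Of 20 measured fatty acid oxidation genes, 3 rose and 0 fell, against the same shares of all genes, with a median of 0.25 (0.56 on low fat and 0.02 on high fat). Hadhb of the trifunctional protein rose by 0.40 (adjusted p = 0.0339) and the peroxisomal enzyme Ehhadh by 0.47 (adjusted p = 0.0475), both separated, and the carnitine carrier Slc25a20 by 0.31. Eci2, an enoyl-CoA isomerase chosen after its values were seen, rose by 0.36 (adjusted p = 0.0425).

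Insulin signalling had 2 rises among 18 measured genes, against 1.91% of all genes. Grb14, an adaptor that inhibits the insulin receptor, rose by 0.81 (SE 0.16, adjusted p = 0.0339). On low fat, the intensities of Grb14 were 264, 354 and 472 in wild type and 453, 694 and 795 in knockout, and on high fat 594, 391 and 488 against 1026, 925 and 844. The genotypes overlapped on low fat and not on high fat. Of 20 measured secreted factors, Rbp4, the retinol carrier, rose by 0.95 (adjusted p = 0.0255), and Nampt, the rate-limiting enzyme of NAD salvage, by 0.54 (adjusted p = 0.0255). The Nampt intensities were 903, 1009 and 1106 (wild type) and 1578, 1371 and 1590.0 (knockout) on low fat, with 849, 586 and 769.8 (wild type) and 986, 1110.3 and 1089 (knockout) on high fat. Nampt was separated on both diets, and Rbp4 on low fat alone. Gdf3, a TGF-beta family member, fell by 0.90 on the log2 scale (SE 0.11, adjusted p = 0.00724), with -0.06 on low fat and -1.74 on high fat, a difference between diets that was itself called. On low fat both genotypes were under the floor.

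Nr3c1, the glucocorticoid receptor, and Hsd11b1, which regenerates active glucocorticoid, rose among 16 measured genes of that pathway. The wild-type arrays gave Nr3c1 intensities of 61.2, 38.7 and 48.6 on low fat against 181, 222 and 175 in knockout, and 138, 115 and 102 against 126, 166 and 215 on high fat. The averaged differences were 0.83 (SE 0.11, adjusted p = 0.015) for Nr3c1 and 0.61 (SE 0.12, adjusted p = 0.0279) for Hsd11b1. For both the genotypes overlapped on high fat, so neither was separated. Nrip1, a corepressor of nuclear receptors, was separated upward at 0.70 (adjusted p = 0.0803), among 14 corepressors and coactivators of which 0 passed the test. Tshr, the thyrotropin receptor of fat cells, rose by 0.57 with an adjusted p just under the threshold and was separated, and was chosen after its values were seen.

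**Figure D3:**
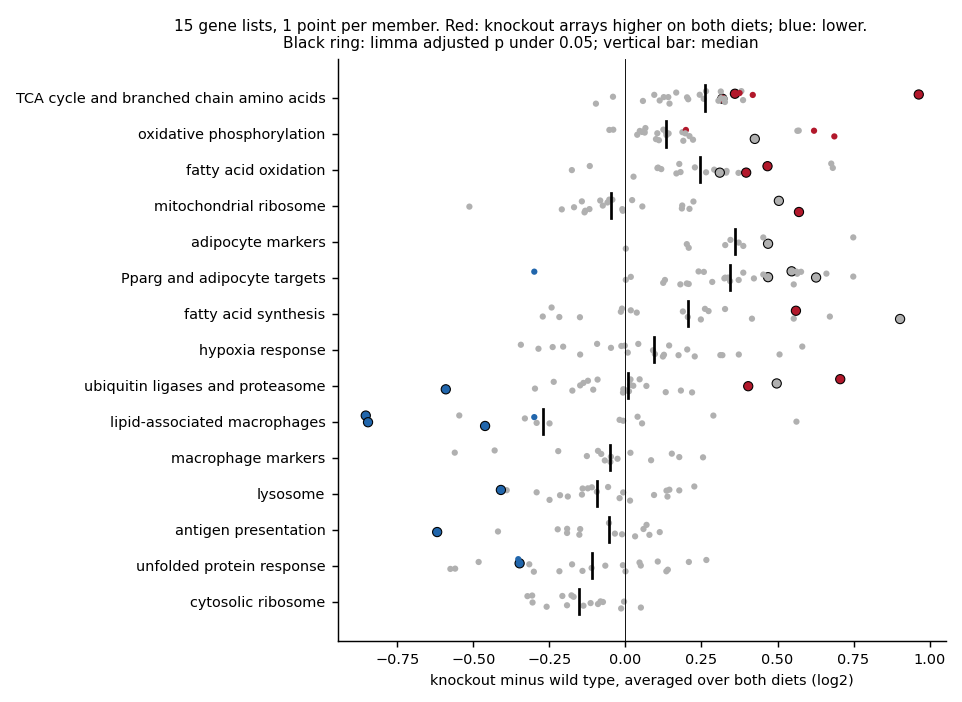
Averaged genotype difference (x axis, log2 of intensity + 50, knockout minus wild type) of each measured gene in 15 gene lists, a row of points for each list with a bar at the median, separated genes in red (higher) or blue (lower) and called genes ringed in black. The lists of citrate cycle genes (median 0.26), Pparg targets (0.34) and adipocyte markers (0.36) lie to the right of the median of all genes (-0.002), and the lipid-associated macrophage markers (-0.27) to the left.

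Among the genes both called and separated, Cd9 and Gpnmb, markers of lipid-associated macrophages, were among the 3 largest falls. Cd9, a tetraspanin of the cell surface, fell by 0.85 on the log2 scale (SE 0.13, adjusted p = 0.018). Cd9 measured 1917, 1899 and 1285 in wild type and 739.8, 759 and 652 in knockout on low fat, and 2388, 2093 and 1548 in wild type and 1300.0, 1389 and 1356 in knockout on high fat. Gpnmb, a glycoprotein of lipid-laden macrophages, differed by -0.85 (SE 0.17, adjusted p = 0.0342). The Gpnmb intensities were 2056, 2221 and 1827 (wild type) and 1014, 1459 and 1163 (knockout) on low fat, with 24973, 22679 and 18365 (wild type) and 7360.2, 12859.5 and 14886 (knockout) on high fat. Knockout was lower on both diets for each gene on these probes, although the Gpnmb level was many times higher on high fat than on low fat in both genotypes. Of the 3 other Gpnmb probes, 1 was separated too, at -0.83, while the others differed on high fat, by -1.25 and -1.23, but not on low fat, where they gave 0.06 and -0.002. Cd63, a tetraspanin of late endosomes, fell with -0.46 (SE 0.10, adjusted p = 0.0398), and Lpl, the lipase that frees fatty acids from lipoproteins, was separated downward at -0.30 (adjusted p = 0.0766). Lpl was chosen after its values were seen.

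Of the 14 measured lipid-associated macrophage markers, 3 fell and 0 rose, 4 were separated downward and the median was -0.27, with 0.16 on low fat and -0.53 on high fat. Of all genes, 1.12% fell and 1.57% were separated downward. The general macrophage markers did not share a direction across the diets. Of 15 measured, 0 passed the test and 0 were separated, with a median of 0.27 on low fat and -0.33 on high fat. Cd68, a lysosomal glycoprotein of macrophages, gave -0.04 on low fat and -1.09 on high fat (averaged, adjusted p = 0.191), and Tyrobp, a signalling adaptor, 0.21 and -1.07 (averaged, adjusted p = 0.211). The mean log2 level of the macrophage list was 8.91 to 9.26 in wild type and 9.10 to 9.78 in knockout on low fat, and 10.87 to 11.21 and 10.47 to 10.62 on high fat. The 14 measured markers of resident macrophages had 0 calls and a median of 0.14. Cd9 and Cd63 are also expressed outside macrophages, and whether the falls come from macrophages was not tested.

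Genes of the lysosome and of endosomal breakdown were also among the falls. Entpd4, a nucleotide phosphatase of the Golgi and lysosome, fell most among the genes both called and separated, with -0.95 (SE 0.13, adjusted p = 0.015). On low fat Entpd4 read 6387, 8101 and 8263 in wild type and 4409, 2768 and 3203 in knockout, and on high fat 5043, 4345 and 4982 and 2812, 3387 and 2344. The knockout mean was 0.456 times the wild-type mean on low fat and 0.594 times on high fat, and the gene was called in 22 of 25 alternative fits. Pld3, an exonuclease of the lysosome, fell with -0.75 (SE 0.13, adjusted p = 0.0252), and a further probe of it gave -0.88 and was separated. Pld3 measured 407, 308 and 314 in wild type and 229, 277 and 213 in knockout on low fat, and 1149, 1047 and 712 in wild type and 423, 364 and 507 in knockout on high fat. Ifi30, a lysosomal thiol reductase that prepares antigens for presentation, fell with -0.62 (SE 0.12, adjusted p = 0.0334), and Mcoln1, the calcium channel of the lysosomal membrane, with -0.41 (SE 0.08, adjusted p = 0.0342). The wild-type arrays gave Mcoln1 intensities of 291, 258 and 226 on low fat against 167, 206 and 179 in knockout, and 206, 229 and 259 against 172, 155 and 151 on high fat. Within each diet the genotypes did not overlap for any of these 4 genes.

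On the list of 21 measured lysosomal genes, Mcoln1 alone fell and 0 rose, with a median of -0.09 (0.17 on low fat and -0.30 on high fat), and of 15 antigen presentation genes Ifi30 alone fell. Outside the list and chosen after their values were seen, the sialic acid exporter Slc17a5, the nucleoside transporter Slc29a3, the proton pump subunit Atp6v1b2 and the membrane protein Glmp were separated downward at -0.62 (adjusted p = 0.0581), -0.49 (adjusted p = 0.0614), -0.26 (adjusted p = 0.0788) and -0.19 (adjusted p = 0.102). Abhd12, a lysophospholipase chosen in the same way but not counted as lysosomal here, fell with -0.49 (adjusted p = 0.0248). Other lysosomal genes, also chosen after their values were seen, went upward: the membrane transporter Mfsd8 rose by 0.58 (adjusted p = 0.0279) and Borcs7, which helps to position lysosomes, by 0.48 (adjusted p = 0.0255), both separated, and the membrane protein Laptm4b was separated at 0.79 (adjusted p = 0.0771).

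Renbp, Amdhd2 and Nagk, which encode enzymes that handle N-acetylated amino sugars, each fell, and they are not a count over such genes. Renbp, which interconverts N-acetylglucosamine and N-acetylmannosamine, fell with -0.69 (SE 0.10, adjusted p = 0.015). The Renbp intensities were 786, 547 and 590.0 (wild type) and 313, 423 and 373 (knockout) on low fat, with 1027, 981 and 926 (wild type) and 609, 563 and 621 (knockout) on high fat. Amdhd2, which removes the acetyl group of N-acetylglucosamine-6-phosphate, fell with -0.50 (SE 0.10, adjusted p = 0.0335). On low fat Amdhd2 read 205, 168 and 235 in wild type and 142, 131 and 132 in knockout, and on high fat 215, 303 and 305 and 187, 159 and 161. Nagk, the N-acetylglucosamine kinase, fell with -0.28 (adjusted p = 0.0453) and was called in 7 of 25 alternative fits. Knockout was the lower genotype on both diets for all 3 on these probes, of which Amdhd2 and Nagk were chosen after their values were seen. The 3 other Nagk probes gave -0.56, -0.62 and -0.67 on high fat and 0.04, -0.14 and -0.02 on low fat, and none of them was separated.

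The letters TCACGTGA, the core of the CLEAR element that the lysosomal regulators TFEB and TFE3 bind, lay upstream of 3 of these genes, whose windows are shown with the letters in capitals, from RefSeq (GRCm38.p6), 5′ to 3′ on the gene's strand.
Mcoln1 (chr8:3500269-3500518, plus strand): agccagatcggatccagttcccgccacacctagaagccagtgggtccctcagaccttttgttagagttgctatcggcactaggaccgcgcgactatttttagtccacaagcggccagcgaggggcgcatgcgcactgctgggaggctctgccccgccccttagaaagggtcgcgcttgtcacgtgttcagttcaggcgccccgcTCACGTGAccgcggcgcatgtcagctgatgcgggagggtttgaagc
Ifi30 (chr8:70766664-70766913, minus strand): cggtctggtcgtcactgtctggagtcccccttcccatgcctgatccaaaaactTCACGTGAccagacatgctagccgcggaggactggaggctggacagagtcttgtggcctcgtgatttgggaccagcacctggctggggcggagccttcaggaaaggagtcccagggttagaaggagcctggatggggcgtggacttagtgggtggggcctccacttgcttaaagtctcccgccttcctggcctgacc
Amdhd2 (chr17:24163734-24163983, minus strand): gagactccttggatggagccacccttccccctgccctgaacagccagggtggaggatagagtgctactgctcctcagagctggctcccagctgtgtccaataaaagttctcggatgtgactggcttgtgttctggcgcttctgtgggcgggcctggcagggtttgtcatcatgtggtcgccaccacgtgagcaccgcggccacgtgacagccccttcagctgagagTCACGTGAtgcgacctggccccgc
The match lay at -46 to -39 in Mcoln1, at -197 to -190 in Ifi30 and at -24 to -17 in Amdhd2, counted from the gene's start. The windows of Pld3, Renbp, Nagk, Slc17a5, Slc29a3 and Glmp, lower genes of the same passages, held no match. TCACGTGA, which reads the same on both strands, was present in 5 of the 142 windows of separated lower genes (3.52%), in 1 of the 190 of separated higher genes (0.526%) and in 1.43% of all 9036 windows. Of these 5 lower genes, only Mcoln1 and Ifi30 are described above as lysosomal. The others were Amdhd2, Rpl34 and the kinase gene Dyrk1b, and the higher gene was Cd164. The hypoxia core letters ACGTG, which lie within TCACGTGA, were present in 28.9% of the lower windows, 15.8% of the higher windows and 21.0% of all windows. These shares describe the letters alone.

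Some genes of the secretory pathway fell, named here after their values were seen and not as a count over the pathway. In the endoplasmic reticulum the protein disulfide isomerase P4hb fell with -0.30 (adjusted p = 0.0475), its relative Txndc5 with -0.34 (adjusted p = 0.0339) and Erp29, a folding factor of secreted proteins, with -0.32 (adjusted p = 0.043). Wfs1, a membrane protein of that compartment that is mutated in Wolfram syndrome, fell with -0.55 (SE 0.08, adjusted p = 0.018). The wild-type arrays gave Wfs1 intensities of 438, 383 and 377 on low fat against 305, 251 and 256 in knockout, and 709, 785 and 625 against 417, 487 and 423 on high fat. Sec16a and Sec24c, which build the vesicles that leave it, fell with -0.46 (adjusted p = 0.0438) and -0.42 (adjusted p = 0.0268), and Cog1 and Cog8 of the Golgi tethering complex with -0.42 (adjusted p = 0.0438) and -0.34 (adjusted p = 0.0453). Alg1, a mannosyltransferase of glycan assembly, fell with -0.46 (adjusted p = 0.0198), while the GDP-mannose enzymes Gmppb and Gmppa were separated at -0.44 (adjusted p = 0.0771) and -0.25 (adjusted p = 0.115). On the list of 21 measured folding and unfolded protein response genes, Dnajc3 alone fell, with -0.35 (adjusted p = 0.0438), and Hyou1 was separated at -0.35 (adjusted p = 0.1) from means under the floor in 3 of the 4 groups. The median of that list was -0.25 on low fat and 0.06 on high fat. Other genes of the pathway went the opposite way: Gosr1, a Golgi SNARE, rose by 0.31 (adjusted p = 0.0268) and Emc6, a subunit of the membrane protein insertase EMC, by 0.27 (adjusted p = 0.0438), and the transport genes Tmed2, Rer1, Cnih1 and Sec22a and the thioredoxin family gene Txndc12 were separated upward at 0.62 (adjusted p = 0.0652), 0.62 (adjusted p = 0.0847), 0.44 (adjusted p = 0.0539), 0.32 (adjusted p = 0.243) and 0.22 (adjusted p = 0.161). Another Gmppa probe gave -0.05.

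A set of 5 cytosolic ribosomal protein genes fell and were separated: Rpl12, Rpl13a, Rpl34, Rpl36a and Rps25. Their averaged differences ran from -0.49 for Rpl34 (adjusted p = 0.0339) to -0.33 for Rpl36a (adjusted p = 0.0434). Rpl13a measured 961, 723 and 683 in wild type and 541, 609 and 549 in knockout on low fat, and 1001, 1071 and 985 in wild type and 778, 613 and 723 in knockout on high fat. Knockout was lower on each diet. They were chosen after their values were seen, and on the list of 16 measured ribosomal protein genes 0 passed the test, 0 were separated and the median was -0.15. Rpl4 of that list gave -0.26 (adjusted p = 0.0775), and its other probe 0.33. Ribosomal protein genes have many near-identical copies in the genome, so their probes may read more than a single gene.

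Plcg2 and Sh3bp2, which act downstream of immune receptors, fell. Plcg2, the phospholipase C of B cells and myeloid cells, fell with -0.53 (SE 0.08, adjusted p = 0.015) and was called in 22 of 25 alternative fits. The Plcg2 intensities were 368, 406 and 382 (wild type) and 226, 263 and 205 (knockout) on low fat, with 454, 517 and 520.2 (wild type) and 391, 347 and 336 (knockout) on high fat. Sh3bp2, an adaptor of the same receptors, fell with -0.55 (SE 0.08, adjusted p = 0.015). On low fat Sh3bp2 read 622, 533 and 555 in wild type and 407, 462 and 404 in knockout, and on high fat 1471, 1188 and 1217 and 755, 761 and 762. Knockout was lower than wild type on both diets for both genes, and the Sh3bp2 difference was -0.39 on low fat and -0.72 on high fat. Blnk, Prkcd, Grb2 and Pstpip1, partners in such signalling, were separated at -0.75 (adjusted p = 0.0568), -0.47 (adjusted p = 0.0565), -0.39 (adjusted p = 0.059) and -0.72 (adjusted p = 0.0901), without passing the test. The Grb2 group means, 21.4 to 55.1, were near the floor. Il1rl1, the interleukin-33 receptor, was separated at -0.28 (adjusted p = 0.0773), also near the floor. Bcl2l11, the cell death activator Bim, fell with -0.46 (adjusted p = 0.0475), and its relative Bmf was separated at -0.22 (adjusted p = 0.148). The other Bcl2l11 probe gave -0.01 and the gene was called in 8 of 25 alternative fits, so its fall rests on 1 probe. Apart from Sh3bp2, these genes were chosen after their values were seen.

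The remaining large falls belonged to genes of varied function. Fhdc1, a formin of actin and microtubules, fell with -0.83 (SE 0.13, adjusted p = 0.0237), Tuba1c, an alpha tubulin whose probe may also read its close relatives, with -0.78 (SE 0.14, adjusted p = 0.0255), and Igsf9, an adhesion molecule, with -0.77 (SE 0.13, adjusted p = 0.0251). Ptprk, a receptor tyrosine phosphatase, fell with -0.74 (SE 0.14, adjusted p = 0.0265). The wild-type arrays gave Ptprk intensities of 569, 839 and 604 on low fat against 400.5, 398 and 307 in knockout, and 706, 892 and 685 against 561, 346 and 443 on high fat. The groups did not overlap, with near-equal differences of -0.77 and -0.71. Fam83f fell with -0.71 (adjusted p = 0.0198), its knockout mean on low fat being under the floor, Tmem131l with -0.59 (adjusted p = 0.015) and Smox, spermine oxidase, with -0.56 (adjusted p = 0.0251), while Map11 fell by 0.58 on the log2 scale with an adjusted p just under the threshold. The 3 other probes of Smox gave -0.27, -0.45 and -0.06. The largest separated differences did not pass the test: Cstdc2, a cystatin-related gene, at -2.50 (adjusted p = 0.0616), and Fgd6, an exchange factor for Cdc42, at -1.02 (adjusted p = 0.0652). Cstdc2 averaged 4806 in wild type and 47.1 in knockout on low fat, against 37.1 and 20.4 on high fat, the order that the epididymal genes showed on low fat. Sparcl1 and Grtp1 were the largest separated rises without a call, at 0.82 (adjusted p = 0.0623) and 0.86 (adjusted p = 0.055).

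Since Siah2 is a ubiquitin ligase, the genes of that system were set apart. Of 24 measured ligases and proteasome subunits, 3 rose and 1 fell, against 1.91% and 1.12% of all genes, with a median of 0.01. Nedd4l, a ligase that removes sodium channels and other membrane proteins, fell with -0.59 (SE 0.08, adjusted p = 0.015) and was called in 23 of 25 alternative fits. Nedd4l measured 1853, 1501 and 1533 in wild type and 834, 845 and 886 in knockout on low fat, and 1638, 1639 and 1378 in wild type and 1281, 1336 and 1142 in knockout on high fat. Knockout was lower on both diets, with -0.89 on low fat and -0.30 on high fat. Vhl, which recognises hydroxylated hypoxia-inducible factors for ubiquitination, rose by 0.71 (SE 0.16, adjusted p = 0.0475). The Vhl intensities were 423, 413 and 468 (wild type) and 524, 842 and 991 (knockout) on low fat, with 808, 461 and 617 (wild type) and 1122, 910.0 and 996 (knockout) on high fat. The groups did not overlap, but without replicate 2 of wild type on high fat Vhl was at 0.61 (adjusted p = 0.0862). Trim30a rose by 0.40 (adjusted p = 0.0425) and was separated, and Cblb, a ligase that restrains lymphocyte activation, rose by 0.50 (adjusted p = 0.0438), with 0.67 on low fat and 0.32 on high fat. The other Cblb probe gave 0.44 on low fat and 0.02 on high fat.

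Further genes of the ubiquitin system, chosen after their values were seen, lay on both sides. The deubiquitinase Usp25 rose by 0.67 (adjusted p = 0.0251), the F-box protein Fbxl4, which resides in mitochondria, by 0.40 (adjusted p = 0.0255) and the ligase Herc3 by 0.43 (adjusted p = 0.0425). Usp10, Rnf2 of the Polycomb complex and Cops5, the catalytic subunit of the COP9 signalosome, were separated at 0.57 (adjusted p = 0.055), 0.74 (adjusted p = 0.0529) and 0.32 (adjusted p = 0.0652). Separated downward were the proteasome subunits Psmb1 and Psmc3 at -0.32 (adjusted p = 0.0771) and -0.27 (adjusted p = 0.0547), the ligase Trim41 at -0.22 (adjusted p = 0.1), the F-box protein Fbxo6 at -0.19 (adjusted p = 0.155) and the ubiquitin-like protein Nedd8 at -0.13 (adjusted p = 0.235). Of 21 measured Siah ligases and reported Siah partners, Nr3c1 alone rose and 0 fell, 0 were separated, and the median was 0.01. Of 24 measured hypoxia-inducible genes, 0 passed the test in either direction and 0 were separated, with a median of 0.09. The glucose transporter Slc2a1 gave -0.34 (adjusted p = 0.0887) and the mitochondrial protein Higd1a 0.58 (adjusted p = 0.104).

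The remaining lists held few or no shared differences. Gsta3, a glutathione transferase, rose by 0.48 (adjusted p = 0.038) and was separated, and Cat, catalase, rose by 0.47 (adjusted p = 0.0438), among 24 measured antioxidant genes with a median of 0.07. Fech, the last enzyme of haem synthesis, rose by 0.63 (adjusted p = 0.0255) among 8 genes of red cells, and Pmp22, a myelin protein, by 0.32 (adjusted p = 0.0339) among 5 Schwann cell genes, neither of them separated. The other Pmp22 probe gave -0.02, and the mean of both gave 0.15 (adjusted p = 0.576), while the 2 other Fech probes gave 0.24 and 0.15. Of 13 measured clock genes 0 passed the test, and Arntl was separated upward at 0.50 (adjusted p = 0.0809). Cytokines and chemokines (23 measured), NF-kappaB signalling (20), interferon-induced genes (18), extracellular matrix (23), immediate early genes (17), cell cycle (19), heat shock (12) and brown fat genes (8) each had 0 calls. So did the markers of fibroblasts (17), endothelium (16), mesothelium (12), smooth muscle (12), skeletal muscle (16), spermatids (10), B cells (6), T and NK cells (10), mast cells (7), neutrophils (5) and lymph node stroma (7). Over these lists 1 gene was separated upward and 1 downward, both in the heat shock list.

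The tract lists passed the averaged test through low fat alone. Of 10 measured seminal vesicle genes, 8 fell in the averaged contrast, and of 22 epididymal genes 3 fell, but 0 of either list were separated. The median of the seminal vesicle list was -5.44 on low fat and 0.01 on high fat, and that of the epididymal list -2.05 and 1.01. Svs4, a seminal vesicle secretory protein, averaged 28290.2 in wild type and 2092 in knockout on low fat, and was under the floor in both genotypes on high fat. The requirement of separation on both diets kept these genes out of the shared set, while the averaged contrast called them. None of the measured muscle, mesothelial or spermatid genes was called or separated.

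**Figure D4:**
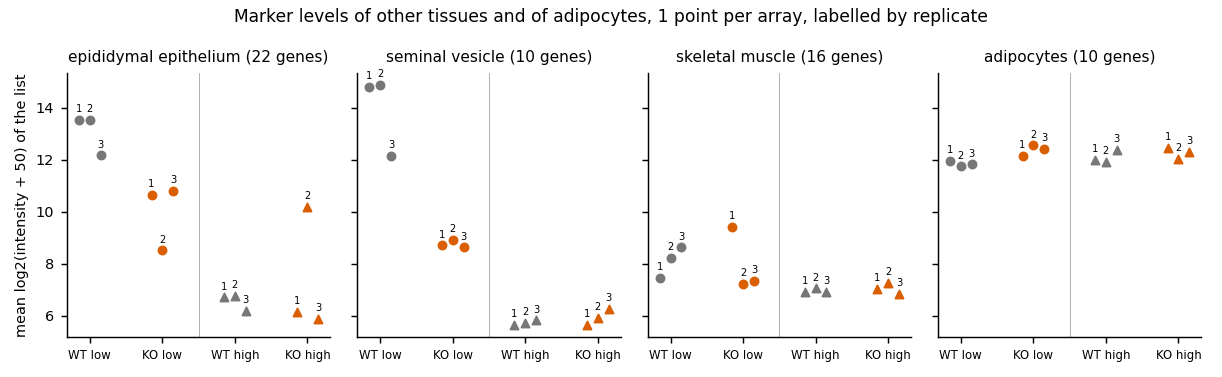
Mean log2 level (y axis, log2 of intensity + 50) of marker lists of other tissues on each of the 12 arrays, grouped by genotype and diet. The seminal vesicle mean is 12.16 to 14.87 in wild type on low fat, 8.63 to 8.91 in knockout on low fat and 5.65 to 6.28 on high fat, and the epididymal mean of replicate 2 of knockout on high fat stands at 10.18.

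The genes around the targeted locus were read as well, and the 57 measured genes whose start lay within 10 Mb of that of Siah2 on chromosome 3 had a median difference of 0.11. Of these, 2 were called higher and 0 lower, and 0 were separated. Erich6, whose start lies 0.0586 Mb from that of Siah2, rose by 1.47 (SE 0.33, adjusted p = 0.0475). Erich6 measured 56.6, 269 and 346 in wild type and 705, 272 and 441 in knockout on low fat, and 25.2, 30.7 and 49.7 in wild type and 186, 426 and 221 in knockout on high fat. The genotypes overlapped on low fat and not on high fat. The other Erich6 probe gave 0.57, with 0.82 on low fat and 0.32 on high fat. Erich6 was called in 8 of 25 alternative fits. Mgst2, a microsomal glutathione transferase, rose by 0.61 (SE 0.11, adjusted p = 0.0265), with 1.04 on low fat and 0.19 on high fat. Over whole chromosomes the share of separated genes ran from 2.65% of 567 genes on chromosome 3 to 6.25% of 368 genes on chromosome 12.

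**Figure D5:**
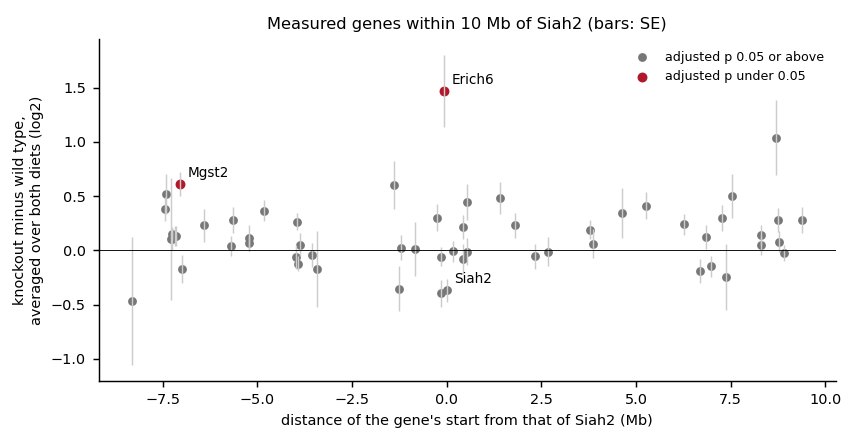
Averaged genotype difference (y axis, log2 of intensity + 50, knockout minus wild type) of the 57 measured genes within 10 Mb of Siah2, by the distance of their start from that of Siah2 (x axis, Mb). Erich6 at 1.47 and Mgst2 at 0.61 are the called genes.

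The separated genes were brighter than average, with a median intensity of 626 for those higher and 594 for those lower, against 298 over all genes. All 4 group means were above the floor for 232 of the 250 higher and 164 of the 183 lower genes. Where a separated gene had further probes, these often pointed the same way: 63 of 113 other probes of the higher genes were higher on both diets, and 11 were separated, against 29.4% and 2.07% of all 4106 such probes. For the lower genes 40 of 60 other probes were lower on both diets and 9 were separated, against 22.0% and 0.999%. Just inside the rule were Tut1 and Tor1aip2, with gaps between genotypes of 0.00037 and 0.0011 in log2, and just outside it Gm6548 and Cdca4, with gaps of 0 and -0.0003. The genes that stayed called with the epididymal covariate included Slc2a13, Mid1, Dpyd, Ptger3, Entpd4, Nedd4l, Sh3bp2 and Tmem131l, with adjusted p-values of 0.0201, 0.034, 0.0476, 0.0476, 0.0476, 0.0476, 0.0476 and 0.0493.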

How the data were processed

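RNA pools of epididymal fat were hybridised to Illumina mouse bead arrays, 12 in all, 3 for each of 4 groups. The values are normalized bead intensities deposited by the authors, made with GenomeStudio per the submitters' processing notes; a background had been subtracted, since 22.9% of the values were below 0 (lowest -27.5). Detection p-values were deposited by the authors in a separate table, whose array codes the labels do not tie to samples. That table and a table with gene names therefore gave only the gene names (joined by row, raw signals equal within 0.06) and how many arrays detected a probe. In the gene-name table, 31 further value columns were not used.

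A probe was kept with a detection p under 0.05 on at least 3 of the 12 arrays (15765 of 25697 probes), and each of 11659 genes was read by its kept probe of highest mean. Symbols were updated through RefSeq (GRCm38.p6), to which 25107 probes matched, and 3331 of 18138 symbols changed. Log2(intensity + 50) was fitted in limma 3.58.1 (R 4.3.3) with a mean for each group, and the contrasts were adjusted by Benjamini-Hochberg over all genes at 0.05, two-sided. The offset of 50 shrinks the differences of dim genes. The intensity 27.9, exceeded by the share of values that the least sensitive array detected (52.1%), served as an approximate floor, and folds against a group under it are given as "at least". Siah2 was also tested by exact permutation within diets. The fit was tested on simulated data.

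Genes were named by rule: Siah2, Siah1a, Siah1b and Nnt; among genes both separated and called, the 15 that rose most and the 15 that fell most; up to 4 called, or 2 uncalled, members per list; up to 8 separated genes called with the epididymal covariate; and called genes within 10 Mb of Siah2. Some of these genes are not reported here, though every count includes them. Genes outside this rule were chosen after their values were seen, also where a passage does not repeat it. The members and lists were chosen with earlier results of these data known. Promoter windows are the 250 bases before the gene's start, first listed per gene, searched on both strands. Nothing states how the animals were assigned to the pools, so p-values measure the spread between pools, and the number of arrays limits the precision. Other offsets, filters, scalings, covariates, blocks and left-out arrays were tried as alternatives.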

Additional observations from a re-analysis of the deposited data

Results flagged for a closer look

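The genotype effect differed between the diets, by limma's test of that difference, for 7 of the named genes, none of them separated on both diets. Gdf3 differed by -1.68 (effect on high fat minus effect on low fat, log2, adjusted p = 0.014), with -0.06 on low fat and -1.74 on high fat. The other 6 were genes of the epididymis and seminal vesicle, whose effect on low fat was strongly negative. Defb45, an epididymal defensin, differed by 6.28 (adjusted p = 0.00146), with -6.26 on low fat and 0.02 on high fat. Spag11b differed by 6.20 (adjusted p = 0.00403), with -7.03 and -0.83. Among the seminal vesicle secretory proteins, Svs4 differed by 3.32 (adjusted p = 0.00152), Svs5 by 4.02 (adjusted p = 0.00149), Svs1 by 4.89 (adjusted p = 0.0202) and Svs3b by 5.74 (adjusted p = 0.0242). Their effects on low fat ran from -5.65 for Svs3b to -3.69 for Svs4, and on high fat from -0.36 for Svs4 to 0.16 for Svs5, where both genotypes were under the floor.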

How the results depend on the processing

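Over all named genes and alternatives, 3699 results kept their direction and side of the threshold, 1064 no longer passed it and 138 newly passed it. With the mean of a gene's kept probes the averaged difference of Rpl4 turned from -0.26 to 0.035 (adjusted p = 0.855) and that of Traf6 to 0.104 (adjusted p = 0.385), neither called in the reported fit either. The averaged contrast, with 354 calls, gave 185 with an offset of 20, 192 without the filter on dim probes, 547 with probes detected on all 12 arrays, 233 with the mean of a gene's probes, 29 with the epididymal covariate, 511 without the 2 arrays that stood apart and 1339 with array weights. Leaving out single arrays gave 13 to 404. The low fat contrast, with 924 calls, gave 505 without the filter, 4 with the epididymal covariate, 2548 with array weights, 1771 without the same 2 arrays, 4 when fitted on its own 6 arrays, and 28 to 1552 without single arrays. The high fat contrast, with 10 calls, gave 4 and 20 with offsets of 20 and 100, 1 with probes detected on all arrays, 5 with the epididymal covariate, 17 with array weights, 3 without the 2 arrays, 0 when limma was fitted on its own 6 arrays, and 4 to 33 without single arrays. The difference between diets, with 12 calls, gave 3 with the epididymal covariate, 4 without the 2 arrays and 5 to 124 without single arrays. The count of separated genes, 433, became 738 with the covariate, on all 12 arrays. It became 993 without the 2 arrays and 475 to 830 without single arrays, where fewer arrays are easier to separate. The Siah2 probe kept its direction with exact permutation p-values from 0.005 to 0.03. Same-numbered arrays did not deviate together (correlations of -0.81 to 0.16, over 0.1 in 3 of 18 pairs). The 2 arrays that stood apart, which differ in number, correlated at 0.70, so these correlations cannot exclude a batch shared by number. With the numbers as a replicate block the calls were 18 averaged, 116 on low fat, 4 on high fat and 6 for the difference between diets. The cause of these shifts was not tested.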
